A study of Homo sapiens with 20 samples.

Results

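The 10 genes described here encode 2 cytoplasmic actins and 8 proteins that bind actin or build actin filaments. They are ACTB, ACTG1, TMSB4X, TMSB10, PFN1, CFL1, ARPC1B, ARPC2, ARPC3 and EZR. They were chosen by symbol, all 10 are among the 17113 protein-coding genes counted, and all 10 passed the filter on low counts that left 15130 genes to test. Their transcripts were measured in 10 human colorectal adenocarcinoma cell lines, once in the extracellular vesicles (membrane-bound particles shed into the medium) and once in the cells, giving 20 libraries. The lines were COLO-201, HCT 116, HT-29, LoVo, LS123, LS513, LS1034, SNU-C1, SW480 and WiDr. All were labelled WT, received no treatment and grew in RPMI-1640 or DMEM with fetal bovine serum and antibiotics. Vesicle RNA came from an exosome isolation kit and was amplified by SMART-Seq, a method for low input, before Nextera XT library preparation, whereas cell RNA went through a stranded KAPA kit with ribosomal RNA removal. Compartment and library kit coincide in every line and cannot be told apart. Each line has 1 library per compartment, so n is the number of lines, and the spread between cultures of 1 line was not measured. WiDr is known as a derivative of HT-29.

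Actin exists as single molecules and as filaments, and cells set the balance with proteins that hold, load, branch or cut. The beta-thymosins (TMSB4X, TMSB10) bind single actin molecules and keep them in reserve, profilin 1 (PFN1) delivers them to growing filament ends, and cofilin 1 (CFL1) severs filaments and returns actin to the pool. The Arp2/3 complex, which holds ARPC1B, ARPC2 and ARPC3 beside the actin-related proteins ACTR2 and ACTR3, starts new filaments as branches on existing ones. Ezrin (EZR) ties filaments to the plasma membrane and is a main component of microvilli in intestinal epithelium.

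The gene pairs of this set are close in sequence, which matters for how reads can be assigned. The coding sequences of ACTB (chromosome 7) and ACTG1 (chromosome 17) in GENCODE 29 are both 1128 bases long including the stop codon and identical at 1029 of them (91.2%), with a longest identical run of 59 bases. Those of TMSB4X (chromosome X) and TMSB10 (chromosome 2) are both 135 bases long and identical at 98 (72.6%), with a longest identical run of 10 bases. The first 120 coding bases of each are shown because the count ratio within each pair is one of the results below. Capitals mark the bases at which the members of a pair differ.
ACTB: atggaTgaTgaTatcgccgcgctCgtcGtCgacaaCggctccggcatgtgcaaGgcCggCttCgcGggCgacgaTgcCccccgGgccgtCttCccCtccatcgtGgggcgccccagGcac
ACTG1: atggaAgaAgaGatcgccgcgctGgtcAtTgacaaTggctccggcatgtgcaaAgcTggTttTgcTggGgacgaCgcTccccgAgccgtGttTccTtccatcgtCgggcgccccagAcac
TMSB4X: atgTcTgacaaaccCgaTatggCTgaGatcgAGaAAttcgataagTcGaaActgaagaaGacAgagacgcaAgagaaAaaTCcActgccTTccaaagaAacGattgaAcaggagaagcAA
TMSB10: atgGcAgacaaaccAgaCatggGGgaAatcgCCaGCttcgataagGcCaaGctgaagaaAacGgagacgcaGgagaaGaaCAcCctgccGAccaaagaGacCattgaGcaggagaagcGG
The actins differ at 21 of these 120 bases and the thymosins at 28. Both families also have processed pseudogenes, and how reads that match several places were counted is not given in the sources used here, so levels of ACTB, ACTG1, TMSB4X and TMSB10 are uncertain to that extent.

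Vesicle libraries held 1.75 to 24.4 M counts and cell libraries 24.8 to 37.4 M. Background was estimated from genes silent in the cells. They were chosen for at most 10 counts in each cell library, so a low value in cells is built in. Vesicle libraries carried reads on those genes, and the background was estimated at 1.82% to 45.4% of vesicle counts and 0.0328% to 0.154% of cell counts. By that estimate SW480, COLO-201, HT-29, HCT 116 and LS513 had the lower background (1.82% to 6.51%), and LS1034, LoVo, WiDr, LS123 and SNU-C1 the higher (17.0% to 45.4%). The same 5 lines of higher background had the shallower vesicle libraries, with at most 4.51 M counts. Summed markers of colorectal epithelium reached 2017 to 15654 CPM (counts per M counts) in vesicles and 2395 to 17371 CPM in cells. Summed markers of leukocytes (7 genes in the table) reached 10.0 to 189 CPM in vesicles and 0.283 to 9.42 CPM in cells, and those of fibroblasts and endothelium (7 genes) 23.0 to 479 CPM in vesicles and 0.605 to 18.6 CPM in cells, with none of these markers at 0 over all libraries of either compartment. Their part in the results below was not tested. Cells of HT-29 and WiDr deviated from the mean of all lines together (r = 0.805 over all tested genes), as did those of HCT 116 and LS123 (r = 0.804), so that the 10 lines are not fully independent. Vesicles of these pairs did not deviate together (r = -0.363 for HT-29 and WiDr, -0.358 for HCT 116 and LS123). Each pair holds 1 line of lower and 1 of higher background.

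The 10 genes together took 1.69% ± 0.701 of all counts in vesicles and 1.47% ± 0.455 in cells (SD, n = 10). In the 5 lines of lower background the share was 2.24% ± 0.479 in vesicles and 1.61% ± 0.419 in cells, and in the 5 of higher background it was 1.15% ± 0.362 in vesicles and 1.34% ± 0.494 in cells (SD, n = 5). Even the scarcest value, ARPC3 in SNU-C1 vesicles, rested on 156 counts, so counting error was small beside the spread between lines for most members. The part of the vesicle counts that the background estimate accounts for had a median over lines of at most 2.96% for any member (ARPC1B). It was larger in SNU-C1, where it reached 23.3% for CFL1, 15.7% for ARPC3 and 15.2% for ARPC1B.

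**Figure D1:**
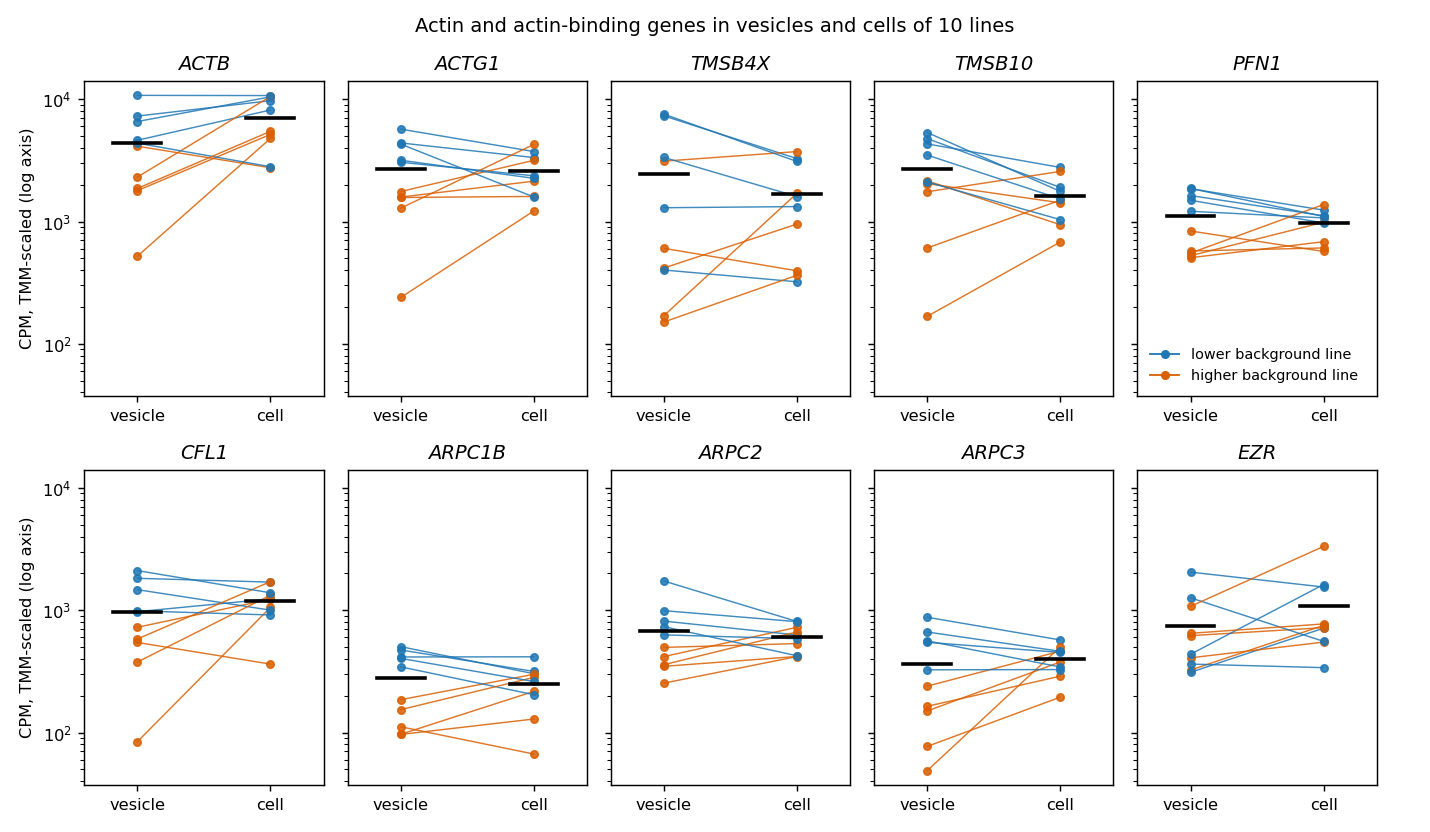
Level of each gene in vesicles (left) and cells (right) of the 10 lines, in TMM-scaled CPM on a log axis. Points are single libraries, lines join the libraries of 1 cell line, colours mark the 5 lines of lower and the 5 of higher vesicle background, and black bars are means over 10 lines. ACTB reached 10750.2 CPM in SW480 vesicles and 521 CPM in SNU-C1 vesicles, against 2751 to 10708 CPM in cells.

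Beta-actin, the main cytoplasmic actin of non-muscle cells, had the highest mean of the 10 in cells per base of transcript, though within the spread of TMSB10. ACTB had 521 CPM at the lowest (SNU-C1), 4250.3 CPM at the median and 10750.2 CPM at the highest (SW480) in vesicles, against 2751 (LoVo), 6809.6 and 10708 CPM (SW480) in cells. The ranges overlapped, and the vesicle level was above that of the same line's cells in LoVo, HCT 116 and SW480, in the last by less than 0.01 log2 units. ACTB ranked between 3rd and 29th of all genes by counts in vesicles (median rank 6.5) and between 1st and 14th in cells (median rank 1). The log2 fold change, vesicle over cell, was -0.89 ± 0.41 (SE), with an adjusted p of 0.0738 by edgeR's quasi-likelihood test paired by line. Without HCT 116 it was -1.08 with an adjusted p of 0.0431, in a fit that called 27.5% of all genes lower.

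Gamma-actin, the second cytoplasmic actin, averaged 2704 ± 1705 CPM in vesicles and 2566 ± 1013 CPM in cells (SD, n = 10). ACTG1 had 239 CPM (SNU-C1), a median of 2406 CPM and 5693 CPM (COLO-201) in vesicles, against 1218 (SNU-C1), 2309 and 4266 CPM (WiDr) in cells. It was higher in vesicles in all 5 lines of lower background and lower in all 5 of higher background. In COLO-201 vesicles it had more counts than ACTB (ACTB/ACTG1 ratio of 0.811, against 2.18 in cells), and in HCT 116 and LS123 vesicles nearly as many (1.02 and 1.06, against 1.77 and 1.73 in cells).

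In vesicles the thymosins had the widest ranges over lines. TMSB4X had 151 CPM (LS123), a median of 950.1 CPM and 7543 CPM (LS513) in vesicles, against 321 (HCT 116), 1462 and 3729.9 CPM (LS1034) in cells. Its highest vesicle library exceeded its lowest 50-fold, and its highest cell library the lowest 11.6-fold. TMSB10 had 168 CPM (SNU-C1), a median of 2126 CPM and 5340.2 CPM (LS513) in vesicles, against 679.9 (SNU-C1), 1512 and 2769 CPM (HT-29) in cells. TMSB10 was above the cell level in 7 of 10 vesicle libraries, the exceptions being SNU-C1, WiDr and LS123, and it had the highest fold change of the set at 0.41 ± 0.39 (SE, adjusted p = 0.385, edgeR). TMSB4X was above the cell level in 5 of 10 lines.

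Profilin 1 varied least in vesicles and cofilin 1 had the lowest single ratio. PFN1 had 506 CPM (LS1034), a median of 1025 CPM and 1865 CPM (SW480) in vesicles, against 569 (LoVo), 1028 and 1377 CPM (LS123) in cells, a 3.69-fold range in vesicles and a 2.42-fold one in cells. CFL1 had 84.2 CPM (SNU-C1), a median of 849 CPM and 2108 CPM (SW480) in vesicles, against 363 (LoVo), 1234 and 1713 CPM (WiDr) in cells. In SNU-C1 the log2 level of CFL1 in vesicles minus that in cells was -3.64, while PFN1 in the same libraries had 575 CPM in vesicles and 608 CPM in cells.

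By median CPM over the lines, not corrected for length, the Arp2/3 subunits were scarcer than the actins, thymosins, profilin and cofilin. This did not hold in every library. In HCT 116 cells ARPC2 had 585 CPM and TMSB4X 321 CPM, and in COLO-201 vesicles ARPC2 had 1732 CPM and CFL1 973 CPM. ARPC1B had 96.4 CPM (LS1034), a median of 265 CPM and 504 CPM (COLO-201) in vesicles, against 66.7 (LoVo), 272 and 416 CPM (HT-29) in cells. ARPC2 had 254 CPM (LS123), a median of 563 CPM and 1732 CPM (COLO-201) in vesicles, against 418 (LS123), 606 and 809 CPM (COLO-201) in cells. ARPC3 had 48.8 CPM (SNU-C1), a median of 283 CPM and 876 CPM (COLO-201) in vesicles, against 195 (LS123), 415 and 571 CPM (COLO-201) in cells. COLO-201 vesicles were the highest library for each of these subunits. In vesicles the 5 lines of lower background lay wholly above the 5 of higher background for all 3 subunits (for ARPC1B, 344 to 504 CPM and 96.4 to 185 CPM), and likewise for ACTB, ACTG1, PFN1 and CFL1. These 7 of the 10 members stand beside 7.65% of all tested genes. The opposite order, with the lower background lines wholly below, held for 0 of the 10 and 19.8% of all tested genes. The classes were set from these same vesicle libraries, and genes of like level were not compared. In cells the classes overlapped for each of the 10, beside 0.0529% of all genes with the lower background lines wholly above.

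Ezrin followed an order of lines of its own. EZR had 311 CPM (COLO-201), a median of 528 CPM and 2048 CPM (HCT 116) in vesicles, against 339 (SW480), 736 and 3325 CPM (LS123) in cells. It was higher in vesicles than in cells in HT-29, HCT 116 and SW480, by up to 1.18 log2 units (HT-29), and its lowest ratio, -1.89, was in LS513, a line in which 8 of the 10 genes were higher in vesicles. In SNU-C1, where every member was lower in vesicles, EZR had 619 CPM in vesicles and 719.7 CPM in cells.

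Compared per kilobase of transcript, TMSB10 had the highest mean in vesicles with 5388 ± 3506 CPM per kb, against 3247 ± 1355 in cells (SD, n = 10). ACTB had 2301 ± 1610.3 CPM per kb in vesicles and 3671 ± 1675 in cells. The spreads of TMSB10 and ACTB overlapped in both compartments. TMSB4X (1430.2 ± 1688 in vesicles, 984 ± 749 in cells) and ACTG1 (1199 ± 756 in vesicles, 1137 ± 449 in cells) came next in both compartments and did not differ from each other beyond their spread. Below them lay PFN1 (856 ± 442 CPM per kb in vesicles, 753 ± 209.7 in cells) and CFL1 (515 ± 346 in vesicles, 635 ± 211 in cells). ARPC2, ARPC3 and EZR averaged 242 to 422 CPM per kb in vesicles and 352 to 392 in cells, within each other's spread, and ARPC1B was last with 162 ± 96.3 in vesicles and 145 ± 58.2 in cells. The kits cover transcripts differently, so an order within a compartment is firmer than a level between compartments. The order also rests on the transcript chosen, the longest of the best-ranked ones, with 1702 bases for TMSB4X and 496 for TMSB10. A shorter transcript would give a gene a higher level per kb, and other choices were not tested.

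Across the 10 lines, 0 of the 10 genes passed the test between vesicles and cells (adjusted p under 0.05, edgeR's quasi-likelihood test with line as a block), against 56.7% of all tested genes, of which 28.6% were higher and 28.1% lower in vesicles. ACTB alone had an unadjusted p under 0.05, and DESeq2 called 1 member, TMSB10 (0.78, adjusted p = 0.0253), beside 41.4% of all tested genes that DESeq2 found higher. Between ACTB at -0.89 and TMSB10 at 0.41, the other members had log2 fold changes of -0.54 ± 0.41 for CFL1, -0.52 ± 0.32 for EZR, -0.51 ± 0.37 for ARPC3, -0.18 ± 0.38 for ACTG1, -0.08 ± 0.43 for TMSB4X, -0.01 ± 0.26 for ARPC2, 0.04 ± 0.26 for ARPC1B and 0.06 ± 0.28 for PFN1 (SE). A miss of the threshold with errors of this size does not show equal levels. The median of the 10 was -0.13, beside 0.01 over all tested genes. Genes averaging 100 CPM or more in cells, the range that holds every member, had a median of -1.0, and 62.9% of those 3168 genes were lower in vesicles and 1.45% higher. Of the 10 members, 0 were lower and 0 higher. This class was picked by cell level alone and has no upper limit, so it is not matched to the levels of the members. Whether the members differ from genes of like level was not tested.

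**Figure D2:**
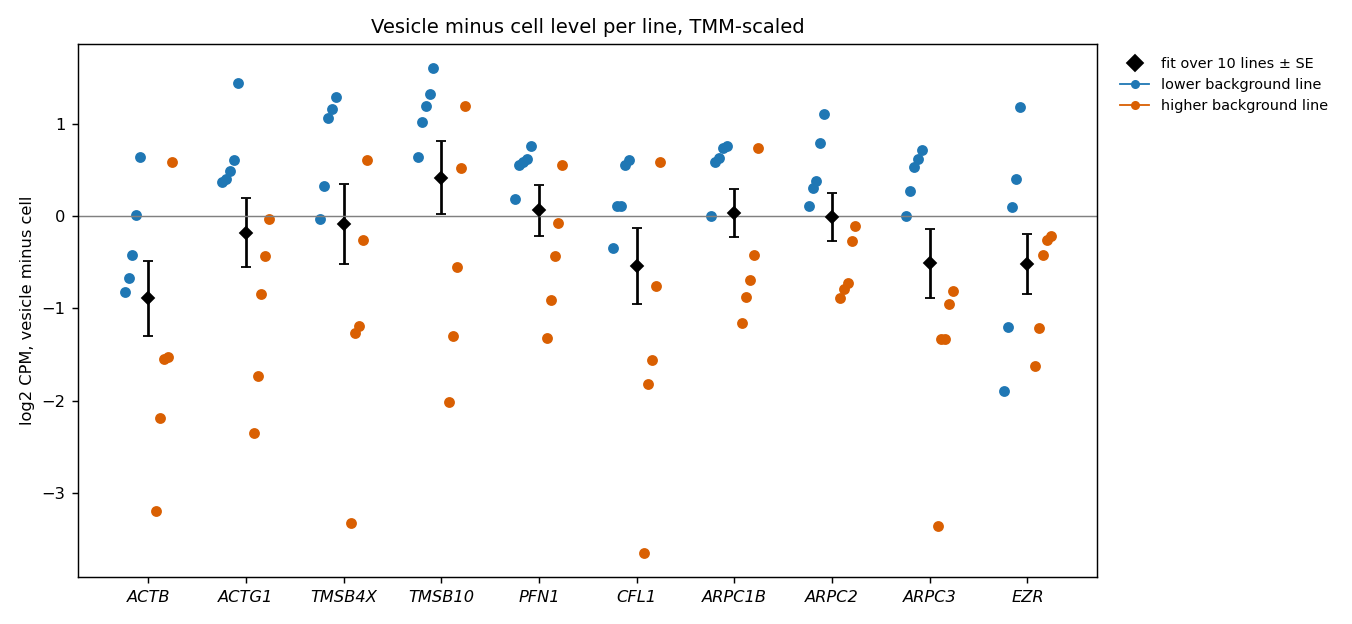
Log2 CPM of vesicles minus cells of the same line for each gene, with the 5 lines of lower background to the left and the 5 of higher background to the right of each gene's mark. Black diamonds are edgeR log2 fold changes over 10 lines with SE. Fold changes run from -0.89 (ACTB) to 0.41 (TMSB10), and ACTG1 and ARPC2 are above 0 in all 5 lines of lower background and below 0 in all 5 of higher background.

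The members moved together within a line. In SW480 all 10 were higher in vesicles than in cells, with a median log2 difference of 0.67, followed by HCT 116 (9 of 10, 0.51), LS513 (8, 0.48), COLO-201 (7, 0.61), HT-29 (7, 0.24) and LoVo (6, 0.57). In LS1034, 1 of 10 was higher (median -0.43), and in WiDr (-1.05), LS123 (-1.31) and SNU-C1 (-2.18) none was. Genes of 100 CPM or more in cells also differed between lines. Their median was -0.29 in SW480, -0.54 in HCT 116, -0.98 in LS513, -0.56 in COLO-201 and -0.31 in HT-29. It was -1.39 in LoVo, -1.18 in LS1034, -1.40 in WiDr, -1.35 in LS123 and -2.01 in SNU-C1. Over the 45 pairs of members, the correlation of the log2 differences across the 10 lines had a median r of 0.80 (from -0.16 to 0.97), that of vesicle levels 0.76 and that of cell levels 0.37. These correlations share libraries and their scaling, and were not compared with those among other genes of like level. The 9 pairs with EZR had an r of at most 0.15. Scaled by library size alone, the number of members higher in vesicles was 7 in LS1034, 3 in WiDr, 3 in SNU-C1 and 2 in LS123, against 1, 0, 0 and 0 with TMM scaling.

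Split by background, the median of the set had opposite signs. In the 5 lines of lower background 4 of the 10 rose in vesicles, beside 19.5% of 14793 genes that were higher there. TMSB10 rose by 1.18 log2 units (adjusted p = 0.00294), TMSB4X by 0.79 (0.0294), ACTG1 by 0.68 (0.0376) and PFN1 by 0.56 (0.0336), all by edgeR. The median of the 10 was 0.56, beside 0.10 over all genes and -0.56 over genes of 100 CPM or more in cells, of which 12.6% were higher. TMSB10 alone stayed past the threshold when any 1 of these 5 lines was left out (adjusted p of 0.00667 to 0.0143). TMSB4X missed it without COLO-201, LS513 or SW480, PFN1 without COLO-201, LS513, HCT 116 or SW480, and ACTG1 whichever of the 5 was left out.

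In the 5 lines of higher background 2 of the 10 fell, ARPC3 by 1.53 log2 units (adjusted p = 0.0128) and ACTB by 1.63 (0.0486, edgeR), beside 25.5% of 16617 genes that were lower there. The median of the 10 was -0.91, beside 0.25 over all genes and -1.46 over genes of 100 CPM or more in cells. ARPC3 passed in each fit that left out 1 of these lines (adjusted p of 0.00755 to 0.0383). ACTB passed without LoVo and missed the threshold without LS1034, SNU-C1, WiDr or LS123, and without LoVo CFL1 and ARPC1B fell as well, making 4.

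The difference between the line classes was itself tested, as the fold change in the lines of lower background minus that in the lines of higher background. With all 10 lines 1 of the 10 differed, ARPC3 by 1.94 ± 0.46 log2 units (SE, adjusted p = 0.0401, edgeR), beside 6.13% of all tested genes with a higher value in the lower background lines. ACTG1 was near it at 1.73 (adjusted p = 0.0503, edgeR). The median difference of the 10 was 1.47, beside -0.31 over all tested genes and 0.93 over genes of 100 CPM or more in cells. Whether the members differ in this from genes of like level was not tested. The number of members that differed changed with the lines included. It was 2 without LS1034 and 1 without SNU-C1 or LS513. Without LoVo 9 of the 10 differed, all but EZR, beside 17.2% of all tested genes, with differences of 1.57 (ARPC2) to 2.65 (TMSB4X) among the 9. Without COLO-201, HT-29, WiDr, HCT 116, LS123 or SW480 none of the 10 differed, and the ARPC3 value then ran from 1.87 to 2.05 with adjusted p of 0.0564 to 0.109. After the estimated background was subtracted 0 of the 10 and 0.0% of 12833 genes differed (edgeR, 2 of the 10 with an unadjusted p under 0.05), and ARPC3 had 1.41 with an adjusted p of 0.175. Background and depth cannot be told apart by these classes, since the lines of higher background were also those of shallower vesicle libraries. HT-29 and WiDr, alike in their cells, fell in opposite classes, with medians of the members of 0.24 and -1.05. So did HCT 116 and LS123, with 0.51 and -1.31. The part of background, depth and line in the difference was not tested.

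A change of scaling shifts all genes of a library alike, so the members and the other genes had to move by about the same amount. With TMM scaling the median of all tested genes was 0.01, with RLE size factors 0.38, with library size alone 0.48 and with upper-quartile scaling 0.76. The median of the members relative to that of all genes was -0.14, -0.15, -0.17 and -0.16 under these scalings. ACTB stayed below 0 under all of them (-0.89, -0.53, -0.45 and -0.16) and TMSB10 above 0 (0.41, 0.78, 0.85 and 1.14), whereas ACTG1, TMSB4X and ARPC2 changed sign between TMM and the others. With library size alone TMSB10, PFN1 (0.53), ARPC1B (0.50) and ARPC2 (0.46) passed as higher in vesicles, beside 36.6% of all genes. The same 4 passed with upper-quartile scaling, beside 46.0% of all genes and 14.7% of those of 100 CPM or more in cells.

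The same 4 genes also passed after the background was subtracted from each vesicle library, beside 15.1% of 12833 genes and 13.4% of those of 100 CPM or more in cells. TMSB10 rose by 1.21 log2 units (adjusted p = 0.00683), PFN1 by 0.88 (0.00602), ARPC2 by 0.79 (0.00547) and ARPC1B by 0.79 (0.00965, edgeR with TMM on the subtracted counts). The 4 passed in all 10 fits that each left out 1 line, and ACTG1 and TMSB4X joined them without SNU-C1. ACTB was at -0.09, CFL1 at 0.21, ARPC3 at 0.25 and EZR at 0.31, none past the threshold. Subtracting the background and changing the scaling both move the zero line of every gene, so a rise here is relative to the other genes kept.

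**Figure D3:**
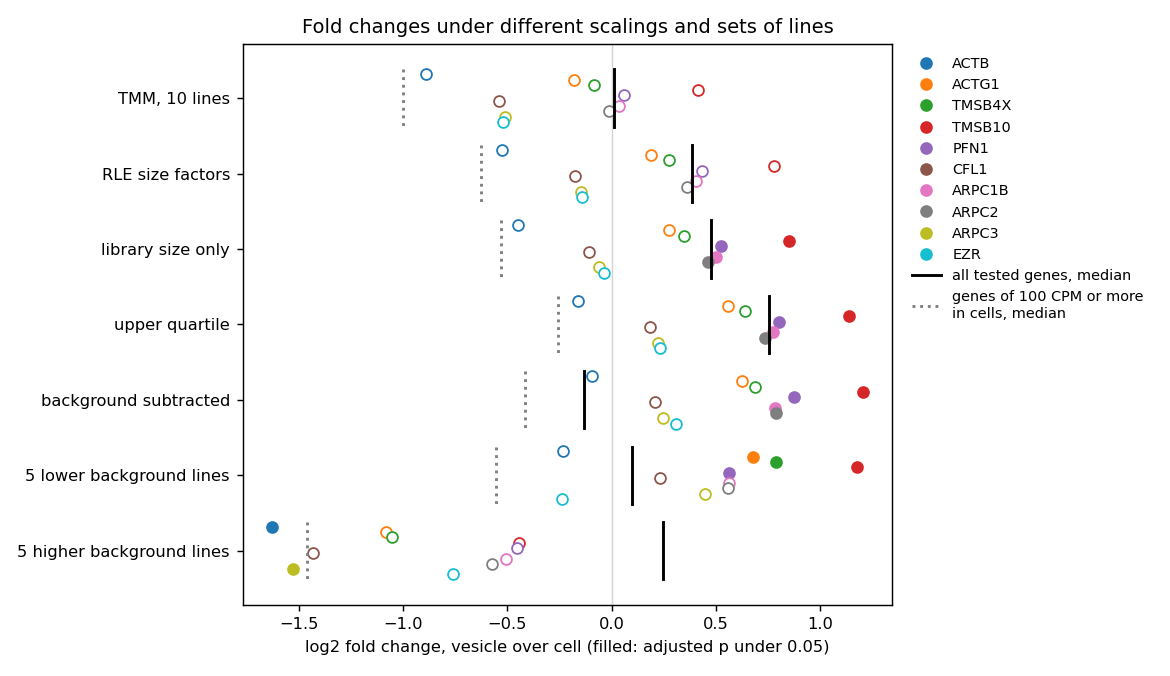
Log2 fold change, vesicle over cell, of each gene under 4 scalings, after background subtraction, and in the lines of lower and of higher background alone. Filled points passed an adjusted p of 0.05 (edgeR), black bars are medians of all tested genes and dotted bars medians of genes of 100 CPM or more in cells. The points move with the bars between scalings, because a change of scaling shifts all genes alike. TMSB10 is the highest gene in each setting with all 10 lines (0.41 to 1.21). Filled are 4, 4, 4, 4 and 2 genes under library size, upper quartile, background subtraction, lower background and higher background.

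The count ratio of 2 genes within a library does not depend on the scaling. It can still depend on how each kit covers the 2 transcripts, and kit and compartment coincide. Of the 6 pairs compared, 4 shifted between vesicles and cells, where 56.7% of all tested genes taken singly were called. How often other pairs of genes shift was not tested. P-values below are from exact two-sided sign-flip permutation tests over the 10 lines, which can give no p under 0.00195, adjusted over the 6 pairs. ACTB lost ground to ACTG1. The ACTB/ACTG1 ratio was 1.78 ± 0.823 in vesicles and 2.83 ± 1.14 in cells (SD, n = 10), a shift of -0.71 ± 0.17 log2 units (SE, exact p = 0.00781, adjusted 0.0156), and it was lower in vesicles in 9 of 10 lines. LoVo was the exception, at 2.63 in vesicles and 1.72 in cells. The shift was -0.91 in the 5 lines of lower background and -0.50 in the 5 of higher background.

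TMSB4X lost ground to TMSB10. The TMSB4X/TMSB10 ratio was 0.770 ± 0.579 in vesicles and 1.15 ± 0.933 in cells, a shift of -0.53 ± 0.12 (SE, exact p = 0.00391, adjusted 0.0156, n = 10), lower in vesicles in 9 of 10 lines. LS123 was the exception, at 0.248 in vesicles and 0.243 in cells. The ratio was high in both compartments in COLO-201, LS1034, SNU-C1, LS513 and SW480 (0.957 to 1.53 in vesicles and 1.05 to 2.62 in cells) and low in both in the others (0.191 to 0.301 in vesicles and 0.243 to 0.478 in cells). The shift was -0.40 in the lines of lower background and -0.66 in those of higher background.

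PFN1 gained on CFL1, and ARPC2 on ARPC3. The PFN1/CFL1 ratio was 1.74 ± 1.82 in vesicles and 0.894 ± 0.337 in cells, a shift of 0.67 ± 0.34 (SE, exact p = 0.00586, adjusted 0.0156, n = 10), higher in vesicles in 9 of 10 lines. SNU-C1 gave 6.83 in vesicles and 0.576 in cells, and without it the shift was 0.34 (adjusted p = 0.0313, exact). The ARPC2/ARPC3 ratio was 2.69 ± 2.17 in vesicles and 1.57 ± 0.358 in cells, a shift of 0.56 ± 0.24 (SE, exact p = 0.0156, adjusted 0.0234, n = 10), higher in 9 of 10 lines, the exception being HT-29. SNU-C1 again stood apart, at 8.56 in vesicles and 1.45 in cells, and without it the shift was 0.33 (adjusted p = 0.0469, exact). In the lines of lower background the ARPC2/ARPC3 shift was 0.11, against 1.0 in those of higher background, and the PFN1/CFL1 shift was 0.33 and 1.0. With 5 lines an exact p cannot go below 0.0625.

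The other pairs did not shift beyond their spread. ARPC1B/ARPC2 was 0.426 ± 0.155 in vesicles and 0.418 ± 0.164 in cells, a shift of 0.04 ± 0.15 (SE, exact p = 0.779, adjusted 0.779, n = 10), with lines from -0.37 to 1.01. EZR/ACTB was 0.317 ± 0.356 in vesicles and 0.210 ± 0.207 in cells, a shift of 0.40 ± 0.49 (SE, exact p = 0.445, adjusted 0.534, n = 10), up in 5 lines and down in 5. Without WiDr and LS123, each close to another line in its cells, the shifts of ACTB/ACTG1, TMSB4X/TMSB10 and PFN1/CFL1 each had an adjusted p of 0.0469 and that of ARPC2/ARPC3 one of 0.0938 (exact).

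**Figure D4:**
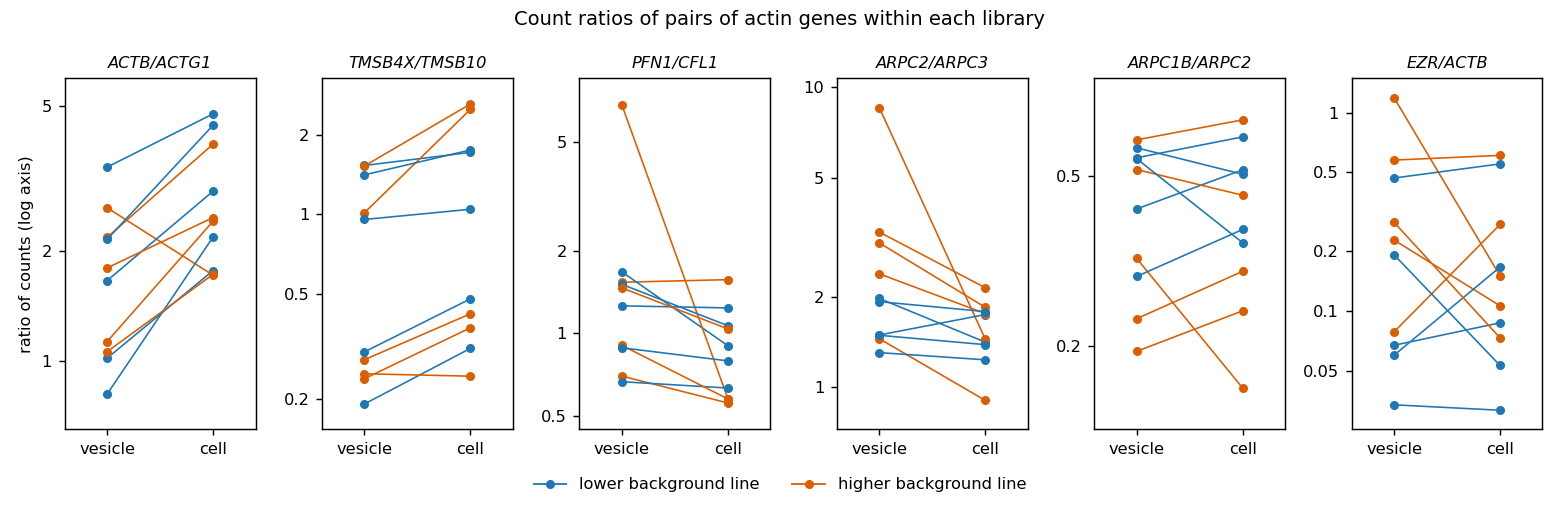
Ratio of the counts of 2 genes within each library, in vesicles (left) and cells (right), on log axes that differ between panels. Lines join the libraries of 1 cell line and colours mark its background class. ACTB/ACTG1 and TMSB4X/TMSB10 are lower in vesicles in 9 of 10 lines, PFN1/CFL1 and ARPC2/ARPC3 higher in 9 of 10, and SNU-C1 vesicles stand out at 6.83 and 8.56 in those last panels.

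Whether a line that is high in its cells is also high in its vesicles was asked for each gene over the 10 lines. TMSB4X had the highest correlation of log2 CPM (r = 0.74, permutation p = 0.0171, and Spearman's rho = 0.68, permutation p = 0.0336), followed by ARPC1B (r = 0.65, p = 0.0257, rho = 0.77, p = 0.0125) and TMSB10 (r = 0.64, p = 0.0451, rho = 0.52, p = 0.133, all by permutation). Adjusted over all tested genes, p was 0.151, 0.177 and 0.228 for r, and 0.243, 0.172 and 0.419 for rho. Thus 0 of the 10 passed, beside 2.35% of all tested genes with a positive r. The other 7 ran from r = 0.20 for CFL1 to r = 0.60 for ARPC2, and ACTB had r = 0.36 (rho = 0.55). The median r of the 10 was 0.48, beside 0.38 over all tested genes. Without the 2 lines farthest from the median in cells, r was 0.64 for TMSB4X, 0.43 for ARPC1B, 0.16 for TMSB10, 0.02 for ARPC3 and 0.83 for ACTB. For TMSB10 the lines left out were SNU-C1 and HT-29, without which the range of cell levels was narrower and the relation did not hold. Within the 5 lines of lower and the 5 of higher background, r was 0.97 and 0.59 for TMSB4X, 0.56 and 0.60 for ARPC1B, and 0.77 and 0.58 for TMSB10, but 0.69 and -0.17 for ACTB, 0.55 and -0.49 for PFN1 and 0.64 and -0.04 for CFL1, with too few lines in a class for a test. Without WiDr and LS123 the median r of the 10 was 0.63, with 0.89 for PFN1 and 0.81 for TMSB10, and 0 of the 10 passed.

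**Figure D5:**
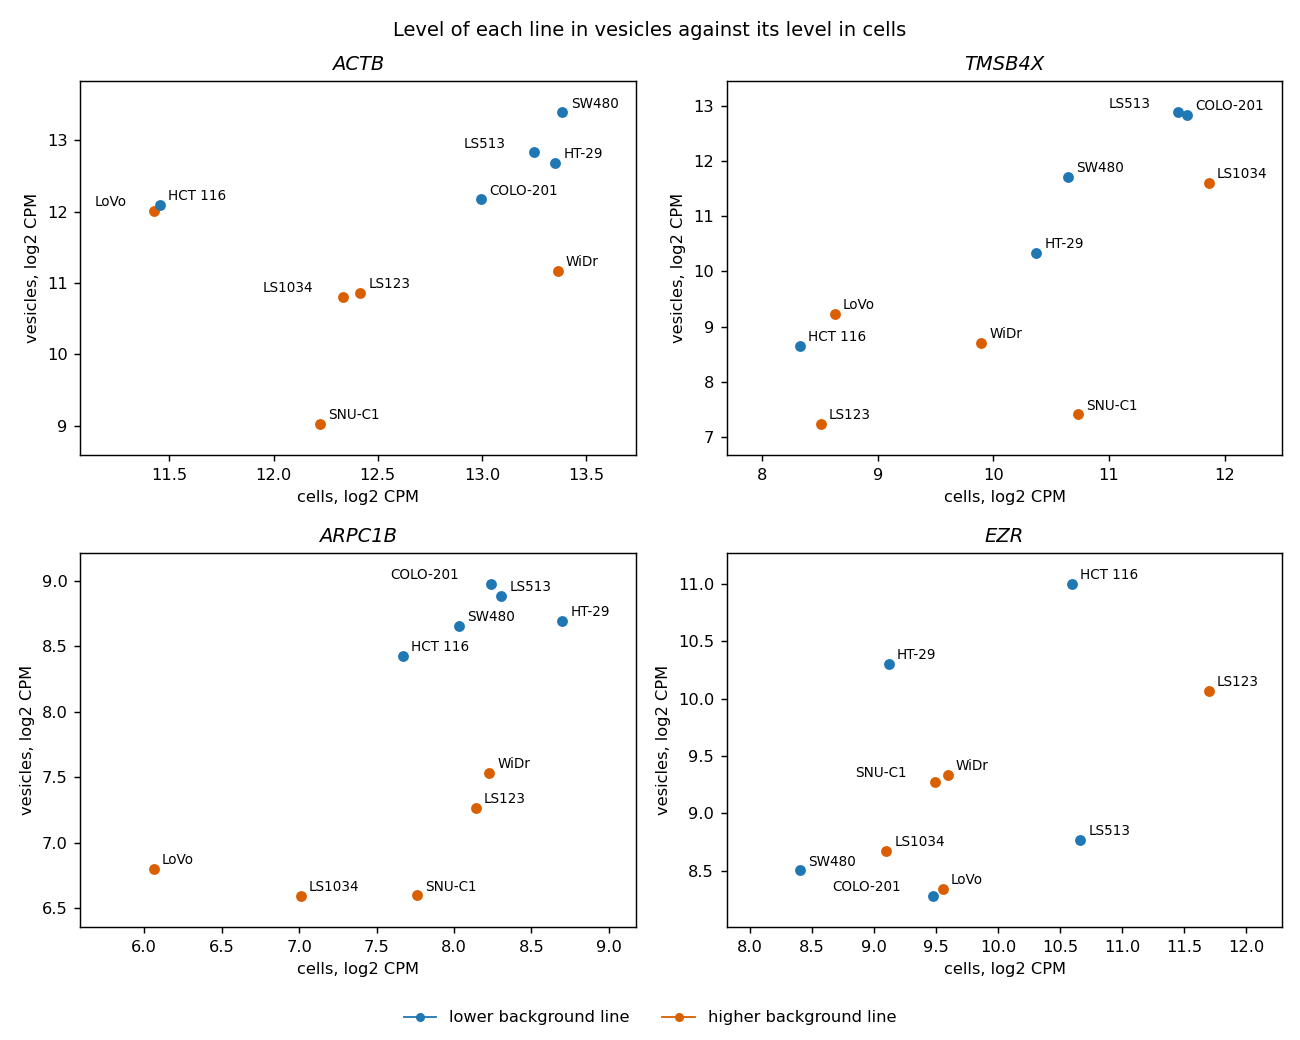
Log2 CPM in vesicles against log2 CPM in cells for ACTB, TMSB4X, ARPC1B and EZR, with 1 point per line, coloured by background class. TMSB4X runs from low in both compartments (HCT 116, LS123, LoVo) to high in both (LS513, COLO-201, LS1034), whereas SNU-C1 is low in vesicles and in the upper part of the range in cells (r = 0.74 over 10 lines, ACTB 0.36).

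With TMM scaling more genes of the rest of the actin machinery fell than rose. Of 120 other actin pathway genes counted, 119 were tested, and 16 (13.4%) were higher and 49 (41.2%) lower in vesicles (median log2 fold change -0.52), beside 28.6% higher and 28.1% lower over all tested genes. The 49 all had at least 10 CPM in cells, whereas 12 of the 16 that rose had less. Of the 119 tested, 103 had at least 10 CPM in cells. Falls depended on level, since 62.9% of all genes of 100 CPM or more in cells were lower and 1.45% higher. Whether the pathway genes differ from other genes of like level was not tested. Upper-quartile scaling, which lifted all genes, gave 34 (28.6%) higher and 26 (21.8%) lower, beside 46.0% higher and 11.6% lower over all genes. The 5 lines of lower background gave 17 (14.5%) higher and 31 (26.5%) lower of 117, beside 19.5% and 19.0% over all genes, and without LoVo, where the median of all tested genes was 0.35, 26 were lower.

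Among the 7 other Arp2/3 genes 2 fell with TMM scaling, a share near the 28.1% of all genes, and 0 rose. ACTR2 averaged 241 ± 215 CPM in vesicles and 630.5 ± 155 in cells (SD, n = 10) and fell by 1.96 ± 0.42 log2 units (SE, adjusted p = 0.00122). ACTR3 averaged 269 ± 153 CPM in vesicles and 668 ± 188 in cells and fell by 1.5 ± 0.30 (adjusted p = 0.00061, edgeR), lower in 10 of 10 lines. ACTR3 passed in the lines of lower background (-0.76, adjusted p = 0.0281), ACTR2 missed it there (-0.84, 0.051), and after background subtraction they had -0.76 and -1.23 (adjusted p = 0.0127 and 0.0121). ARPC1A (0.37), ARPC5L (0.02), ARPC4 (-0.01), ACTR3B (-0.47) and ARPC5 (-0.71) had adjusted p of 0.0577 to 0.982, and with upper-quartile scaling ARPC1A (1.11), ARPC5L (0.76) and ARPC4 (0.73) passed as higher (adjusted p = 0.00084, 0.007 and 0.0297). Whether the fold changes of ACTR2 and ACTR3 differ from those of ARPC1B, ARPC2 and ARPC3 was not tested.

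Crosslinkers and membrane-bound motors include several deep falls. PLS1, a fimbrin that bundles actin in intestinal microvilli, averaged 74.4 ± 31.6 CPM in vesicles and 401 ± 225 in cells and fell by 2.36 ± 0.29 log2 units (adjusted p = 1e-05), and FLNA, the crosslinker filamin A, had 122 ± 97.9 CPM in vesicles and 579 ± 315 in cells and fell by 2.33 ± 0.29 (adjusted p = 1.2e-05). Of their list of 25, 11 fell and 4 rose, whereas with upper-quartile scaling 7 fell and 9 rose. Of 14 non-muscle myosins 7 fell and 2 rose (6 and 3 with upper-quartile scaling), and the class I myosins MYO1D (-2.29) and MYO1E (-1.91) had the smallest adjusted p. In the capping and severing list, 5 of 11 fell and 0 rose (4 and 1 with upper-quartile scaling), with TMOD3 (tropomodulin 3, which caps pointed ends) at -1.49 and ADD1 (adducin 1) at -1.41. Each of these 6 named genes was lower in 10 of 10 lines with TMM scaling. Each also passed (edgeR) in the lines of lower background, after background subtraction and with upper-quartile scaling. Over all tested genes 28.1% fell and 28.6% rose with TMM scaling, and 11.6% and 46.0% with upper-quartile scaling. Of genes of 100 CPM or more in cells, which include these 6, 62.9% fell and 1.45% rose with TMM. With upper-quartile scaling 36.9% of those fell and 14.7% rose. Whether these lists differ from other genes of like level was not tested.

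For nearer relatives of the members the split depended on the scaling. Over all tested genes 28.1% fell and 28.6% rose with TMM, and 18.5% and 35.2% with RLE. With upper-quartile scaling 11.6% fell and 46.0% rose. Among 8 other profilins, thymosins and monomer binders 1 fell, CAP1 (cyclase-associated protein 1, which recycles actin monomers) at -1.08, and 2 rose, against 0 and 2 with upper-quartile scaling. Of 9 cofilin relatives and regulators 4 fell and 0 rose with TMM, against 0 and 3 with RLE or upper-quartile scaling, WDR1, a cofactor of cofilin, at -0.98 and the cofilin phosphatase SSH1 at -0.72 (TMM). Of 7 other ERM proteins and linkers 3 fell and 1 rose with TMM, against 0 and 1 with RLE and 0 and 2 with upper-quartile scaling, and the ezrin-binding scaffold SLC9A3R1 was at -0.99 and EPB41L2 at -1.13 (TMM). Without LoVo none of these 5 named genes passed (adjusted p of 0.0711 to 0.164, edgeR). Of 22 nucleation promoters and formins 10 fell and 4 rose (5 and 7 with upper-quartile scaling). WASF1, a WAVE protein that activates Arp2/3, fell by 1.65 ± 0.23 (adjusted p = 3.1e-05), lower in 10 of 10 lines.

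The genes that rose were mostly ones with few reads in cells. Of the other actins 3 of 4 tested rose, beside 28.6% of all tested genes. The muscle actin ACTA1 had 3.19 CPM in vesicles and 0.071 CPM in cells, and ACTG2 5.50 and 0.158 CPM. Summed markers of smooth and striated muscle, 4 of which are actins, reached 11.1 to 285 CPM in vesicles and 1.10 to 8.06 CPM in cells, with none at 0, and their part in these rises was not tested. Summed over vesicle libraries ACTA1 had 198 counts where the background estimate gives 179, and ACTG2 271 where it gives 295. The estimate was fitted to genes silent in the cells, and over all cell libraries ACTA1 had 18 counts and ACTG2 43. For a gene among those fitted, closeness to the estimate is partly built in and does not test whether its reads are background. After background subtraction 1 gene of the list of other actins was left to test and 0 were called. WIPF1, a partner of the WASP family, averaged 11.7 CPM in vesicles and 0.144 CPM in cells, with 578 vesicle counts against 412 estimated as background, and PFN4, a testis-type profilin, had 223 against 109. The members themselves lay 85.5-fold (ARPC1B) to 4949.7-fold (TMSB10) above the same estimate.

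Some genes outside the pathway followed the members across lines. Among 10014 genes of 10 CPM or more in cells, the vesicle minus cell log2 level of NDUFV1 (a subunit of respiratory complex I) correlated most with the mean of the 10 members over the 10 lines (r = 0.995), followed by EIF3I (a translation initiation factor subunit, 0.992), JPT1 (0.986) and the malate dehydrogenase MDH2 (0.985). The median r of all those genes was 0.16. The mean of the members ran from -2.01 in SNU-C1 to 0.63 in SW480, and these correlations share libraries, depth and scaling with it.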

How the data were processed

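Raw read counts per gene for 17113 protein-coding symbols were used as deposited, with no normalization by the authors recorded. Per the submitters' processing notes, reads were handled with STAR and featureCounts on hg19. Versions, annotation, strand setting and the handling of reads that match several places are not given in the sources used here. Antisense and overlapping genes can therefore share reads. All 20 count columns matched 1 library title each.

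Vesicles were compared with cells by edgeR 4.0.16 in R 4.3.3 (robust quasi-likelihood fit, TMM, filterByExpr, line as a block). Libraries are paired because they come from the same line per the labels. The correlation of their deviations from the compartment means was 0.0846 to 0.546 over the 10 lines. Adjusted p-values are Benjamini-Hochberg values across the tested genes, called under 0.05. The SE is the absolute log2 fold change over the square root of F. The procedure was tested on simulated data. Alternatives were other scalings, no filter, DESeq2 1.42.0, no block, subsets of lines and background subtraction.

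Background was modelled from 2066 genes that no cell library counted more than 10 times, by exonic length and GC content from GENCODE 29 (17092 genes with a length). Its expected counts were subtracted from each library. The lines were split into 5 of lower and 5 of higher background by this estimate. Pair ratios were tested by exact sign-flip permutation and correlations by 100000 permutations in Python 3.11.15 with scipy 1.17.1. Log2 CPM carries a prior count of 2. Levels per kb use the longest GENCODE 29 transcript among those of the best principal rank. Intervals on counts would cover counting error only, since reads carry no molecular identifiers.

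The members, gene lists and tests were chosen with earlier results of these data known. Named beyond the members are the 2 genes of smallest adjusted p in each of 10 actin pathway lists, the other Arp2/3 subunits, and the 5 genes most like the members. Of these, 1 list and 1 like gene are not reported here. The Arp2/3 subunits beyond the first 2 were chosen after their values were seen. The leave-one-out fits within line classes, the test between classes and the class of 100 CPM or more were added after the data were seen.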

Additional observations from a re-analysis of the deposited data

Results flagged for a closer look

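Over 30 sets of 10 values (each member in vesicles, in cells and as their difference), 3 had 1 line far from the others by Dixon's gap test, whose critical value is 0.466 and which chance alone passes in about 1 of 20 sets. ACTG1 had a log2 CPM of 7.90 in SNU-C1 vesicles, with the nearest line at 10.33. CFL1 had a log2 CPM of 8.50 in LoVo cells, with the nearest line at 9.84. The vesicle minus cell log2 difference of ARPC3 was -3.36 in SNU-C1, with the nearest line at -1.34. SNU-C1 had the shallowest vesicle library (1.75 M counts) and the highest background (45.4%), and the part of these in its values was not tested.

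ARPC3 differed between the line classes by 1.94 log2 units, the lines of lower minus those of higher background (adjusted p = 0.0401, edgeR). Of the 10 fits that left out 1 line each, 6 missed the threshold of 0.05 (adjusted p of 0.0564 to 0.109), and it was 1.41 (adjusted p = 0.175) after background subtraction.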

How the results depend on the processing

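Directions of the members near 0 changed with the scaling, the set of lines and the background. ACTG1 was at 0.19 with RLE size factors, 0.27 with library size alone, 0.56 with upper-quartile scaling, 0.19 with DESeq2, 0.075 with no replicate block, 0.12 without WiDr and LS123, 0.68 in the lower background lines and 0.63 after background subtraction. In the same order TMSB4X was at 0.28, 0.35, 0.64, 0.28, 0.54, 0.24, 0.79 and 0.69, and ARPC2 at 0.36, 0.46, 0.73, 0.36, 0.17, 0.20, 0.56 and 0.79. In the higher background lines TMSB10 was at -0.45, PFN1 at -0.45 and ARPC1B at -0.51. With upper-quartile scaling, in the lower background lines and after subtraction, CFL1 was at 0.18, 0.23 and 0.21 and ARPC3 at 0.22, 0.45 and 0.25. EZR was at 0.23 with upper-quartile scaling and 0.31 after subtraction, where its difference between line classes was -0.16. Leaving out 1 line at a time gave ranges of -0.37 to 0.16 for ACTG1, -0.25 to 0.20 for TMSB4X, -0.037 to 0.36 for PFN1, -0.062 to 0.30 for ARPC1B, -0.14 to 0.36 for ARPC2 and -0.068 to 0.085 for the ARPC1B/ARPC2 shift, which was -0.0053 after subtraction.

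Members called higher numbered 4 with library size alone, 4 with upper-quartile scaling, 4 in the lower background lines, 4 after subtraction and 1 with DESeq2, against 0. Members called lower numbered 2 in the higher background lines and 0 to 1 when 1 line was left out. With no replicate block 0 members were called. The other actin pathway genes called higher numbered 25 with RLE, 27 with library size, 34 with upper-quartile scaling, 34 with DESeq2 and 8 with no replicate block, against 16. Those called lower numbered 32 with library size, 26 with upper-quartile scaling, 31 in the lower background lines, 31 after subtraction and 26 to 51 with 1 line left out, against 49. The ARPC2/ARPC3 shift without WiDr and LS123 was 0.56 (adjusted p = 0.0938, exact). The shifts of ACTB/ACTG1, TMSB4X/TMSB10 and PFN1/CFL1 kept their direction in each alternative run and passed in each of those with 8 or more lines. The causes of these changes were not tested. Depth limits SNU-C1 vesicles most, where 1.75 M counts and a 45.4% background leave ARPC3 with 156 counts.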
